A study of Mus musculus with 24 samples.

Results

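The genes described are 7 that encode surface glycoproteins of haematopoietic progenitors: Cd34, Cd93, Muc13, Cd48, Cd44, Cd47 and Cd9. They were taken by name from the 43629 genes of the count table, with symbols from GENCODE M21, and all 7 were among the 10578 genes with enough counts to be tested. The choice was made with earlier results of these data known. Shares of members called are therefore a description and no test of an excess over all genes. RNA had been sequenced from Cas9-expressing mouse acute myeloid leukaemia cells driven by the MLL-AF9 fusion, in 24 libraries that form 8 groups of 3. The groups are a DOT1L knockout, a guide 1 and a guide 2 knockout each of MLLT10, MLLT1 (also called ENL) and MLLT6 (also called AF17), and a non-targeting control (NT). All groups, the control included, received guide RNA by lentivirus at an MOI (infectious particles per cell) of 0.3, were selected from 48 hours after transduction for 72 hours in 2 ug/ml puromycin, and were harvested on day 9. The cells were bulk selected populations of a single leukaemia line, and for DOT1L and NT the labels name a single guide. Whether replicates were separate cultures is not stated by the labels, so the p-values speak only to the spread among these libraries, which may be technical.

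DOT1L is the methyltransferase that places methyl groups on lysine 79 of histone H3, and the proteins of MLLT10, MLLT1 and MLLT6 are known to associate with it. The MLL-AF9 fusion is known to recruit DOT1L to its target genes, and loss of DOT1L is known to let such leukaemia cells differentiate. The 7 proteins belong to different families and share a place on the surface of immature blood cells. Cd34 encodes a sialomucin used to enrich stem and progenitor cells. Cd93 encodes a C-type lectin-like receptor, known in mice as a marker of early haematopoietic cells. Muc13 encodes a transmembrane mucin of epithelia and of blood progenitors. Cd48 encodes a lipid-anchored ligand of the SLAM family that binds CD244 and is used with other markers to part mouse progenitors from the most primitive stem cells, which lack it. Cd44 encodes the main hyaluronan receptor. Cd47 encodes the ligand of SIRPA that restrains engulfment by phagocytes, and a receptor of thrombospondin 1. Cd9 encodes a tetraspanin, a membrane organiser that pairs with the proteins of Ptgfrn and Igsf8.

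The promoter windows are shown for 3 of the 4 genes that were lower in the DOT1L knockout. The source of the windows held none for Cd93, the remaining gene. Each window runs from 250 bases before to 50 bases after a RefSeq transcription start and was copied from a RefSeq table of GRCm38.p6, which holds 8 windows for 6 of the 7 genes. Capitals mark matches to motifs searched on both strands: TGATTTAT for a HOX-MEIS pair, TGACAG for MEIS, TGTGGT for RUNX, TTGCNNAA for C/EBP and AGGAAG for ETS factors, whose match on the other strand reads CTTCCT. The windows are Cd34 chr1:194938571-194938870, Muc13 chr16:33793787-33794086 and Cd48 chr1:171681742-171682041, all on the plus strand.
Cd34: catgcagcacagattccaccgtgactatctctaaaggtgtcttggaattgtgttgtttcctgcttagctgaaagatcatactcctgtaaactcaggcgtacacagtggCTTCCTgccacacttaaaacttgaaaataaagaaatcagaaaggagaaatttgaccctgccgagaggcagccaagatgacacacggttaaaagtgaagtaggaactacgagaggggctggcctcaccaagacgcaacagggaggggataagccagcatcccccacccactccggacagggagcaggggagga
Muc13: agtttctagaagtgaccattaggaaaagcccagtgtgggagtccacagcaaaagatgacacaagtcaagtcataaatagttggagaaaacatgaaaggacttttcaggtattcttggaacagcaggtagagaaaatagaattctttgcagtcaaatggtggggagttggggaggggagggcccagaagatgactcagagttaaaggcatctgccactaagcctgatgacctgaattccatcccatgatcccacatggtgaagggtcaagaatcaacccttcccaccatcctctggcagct
Cd48: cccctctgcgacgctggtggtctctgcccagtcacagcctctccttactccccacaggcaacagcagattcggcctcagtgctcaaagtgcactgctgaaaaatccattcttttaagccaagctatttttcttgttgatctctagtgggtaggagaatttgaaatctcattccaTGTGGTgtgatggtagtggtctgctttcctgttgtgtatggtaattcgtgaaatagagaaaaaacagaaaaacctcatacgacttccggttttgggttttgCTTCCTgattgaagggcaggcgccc
The Cd34 window held an ETS match, 142 to 137 bases before the start. The Cd48 window held a RUNX match 76 to 71 bases before the start and an ETS match after it. The Muc13 window shown held none of the 5 strings, and neither did the other Muc13 window, which is not shown. Of 32851 RefSeq windows of the same length, 35.4% held the ETS string, 16.8% the RUNX string, 19.2% the MEIS string, 10.8% the C/EBP string and 0.977% the HOX-MEIS string. Among the genes that gave no call in the DOT1L knockout, the windows of Cd44 and Cd9 held ETS matches and both windows of Cd47 held a MEIS match. These matches describe letters only and were not tied to binding in these cells.

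Library totals ranged from 2403044 to 7415397 counts. Levels are given as CPM, counts per 1e+06 counts of a library after TMM scaling. The mRNA of the targeted gene was lower in the DOT1L knockout (41.6 to 49.0 CPM of Dot1l, against 69.7 to 75.1 CPM in NT, edgeR adjusted p = 0.000189). For Mllt10 and Mllt6 the values lay below those of NT without passing the test (edgeR adjusted p = 0.139 and 0.496). Their log2 fold changes were -0.76 ± 0.21 and -0.90 ± 0.19, beside -0.71 ± 0.13 for Dot1l (SE). Mllt1 was not lower in its own knockout (34.95 to 69.3 CPM, against 21.8 to 41.2 CPM in NT, edgeR adjusted p = 0.148), so MLLT1 results refer to libraries labelled as MLLT1 knockout. Defining markers of myeloid cells, Ptprc, Spi1 and Mpo among them, had counts in all groups, with 8 of 8 detected. Of the 6 B cell markers, Ighm was counted in all groups (mean of 164 CPM in the DOT1L knockout and 102 CPM in NT, with no call) and Cd79b stood below 1 CPM, while Cd79a, Ms4a1 and Pax5 had no count in any library. T and NK cell markers summed to at most 2.23 CPM. Of 6 endothelial markers only Pecam1, which myeloid cells also make, was counted in NT, and Cdh5, Kdr, Tek, Vwf and Emcn were at 0 there. MLLT1 guide 1 replicate 1 and MLLT6 guide 1 replicate 3 stood apart, with the lowest median correlations with their own group (0.932 and 0.942). The next lowest values were close to the latter, at 0.949 for NT replicate 1 and 0.950 for MLLT1 guide 1 replicate 3 and NT replicate 3.

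Set on a scale of CPM per kilobase of exon, the levels of the genes could be ordered within a group. In the DOT1L knockout the order was Cd47 at 81.5 ± 12.9, Cd48 at 43.8 ± 3.76, Cd93 at 43.5 ± 1.69, Muc13 at 39.3 ± 6.92, Cd44 at 19.7 ± 0.895, Cd9 at 8.48 ± 2.33 and Cd34 at 4.16 ± 1.65 CPM per kilobase (SD, n = 3). In NT it was Muc13 at 188 ± 16.8, Cd93 at 135 ± 17.7, Cd47 at 86.2 ± 33.97, Cd48 at 84.6 ± 27.3, Cd34 at 24.4 ± 3.12, Cd44 at 14.7 ± 3.56 and Cd9 at 5.90 ± 1.26 CPM per kilobase (SD, n = 3). Per length, Muc13 thus led the 7 in NT. It stood among 3 genes whose levels did not differ beyond their spread in the DOT1L knockout, while Cd34 was the lowest there. These ranks depend on the exon lengths used. In plain CPM, Cd93 led NT (mean of 903, against 572 for Muc13). By that measure Cd9 was the lowest in the DOT1L knockout (mean of 17.3 CPM, against 30.3 CPM for Cd34). In the NT order, the SD ranges of Cd93 and Cd47 met only at their ends, and Cd47 and Cd48 lay within each other's spread.

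**Figure D1:**
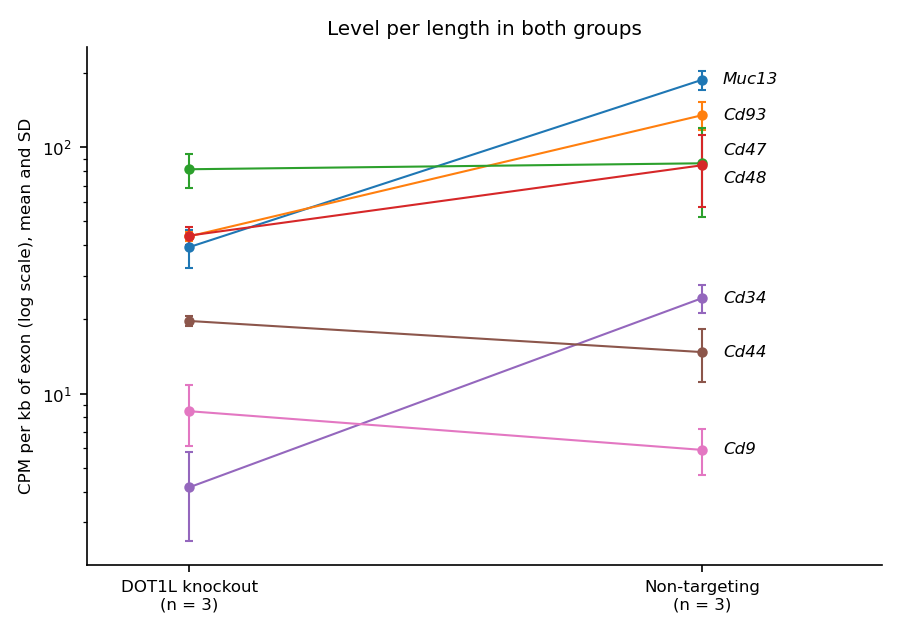
Mean level per length of each gene, in CPM per kilobase of exon on a log axis, in the DOT1L knockout (left) and NT (right); bars are SD, n = 3. Lines for Muc13, Cd93, Cd48 and Cd34 lie lower on the DOT1L side, while Cd47 stays near 82 to 86 CPM per kilobase.

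In the DOT1L knockout, Cd34, Cd93, Muc13 and Cd48 fell, and Cd44, Cd47 and Cd9 did not pass the test. The fitted fall was largest for Cd34 and smallest for Cd48. That is 4 of 7 genes called, all lower, beside a background of 21.8% of all 10578 tested genes called and 10.7% called lower (edgeR's quasi-likelihood test, Benjamini-Hochberg adjusted p under 0.05). Every DOT1L library lay below every NT library for all 4, as for 18.6% of tested genes. The median log2 fold change was -0.95 over the 7 genes and 0.01 over all tested genes.

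Cd34 (ENSMUSG00000016494, mm10 chromosome 1, 194938819 to 194961279, plus strand) had 44.2, 22.4 and 24.4 CPM in the DOT1L knockout, against 203, 174 and 158 CPM in NT. The groups did not overlap, and the highest DOT1L library lay far below the lowest NT library. On the log2 scale the fall was 2.57 ± 0.28 (SE), a fold of 0.169 (edgeR adjusted p = 3.36e-07). The DOT1L libraries held 63 to 137 counts of Cd34 and the NT libraries 406 to 556.

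Cd93 (ENSMUSG00000027435, chromosome 2, 148436640 to 148443563, minus strand) had 300.2, 293 and 278 CPM in the DOT1L knockout, against 780.3, 1017 and 911 CPM in NT. All DOT1L libraries lay close together and below every NT library. It fell by 1.64 ± 0.14 on the log2 scale, a fold of 0.322 (edgeR adjusted p = 6.39e-09).

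Muc13 (ENSMUSG00000022824, chromosome 16, 33794037 to 33819934, plus strand) had 144, 106 and 109 CPM in the DOT1L knockout, against 594, 609 and 514 CPM in NT. DOT1L replicate 1 was the highest of its group for this gene, as it was for Cd34, and still lay far below NT. The fitted fall was 2.26 ± 0.19 on the log2 scale, a fold of 0.209 (edgeR adjusted p = 6.29e-09).

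Cd48 (ENSMUSG00000015355, chromosome 1, 171682009 to 171705258, plus strand) had 56.1, 47.3 and 52.9 CPM in the DOT1L knockout, against 93.6, 72.2 and 136 CPM in NT. The groups did not overlap, but NT replicate 3 lay well above the other NT libraries. It fell by 0.95 ± 0.25 on the log2 scale, a fold of 0.519 (edgeR adjusted p = 0.00829). Without NT replicate 3 the log2 fold change was -0.67 and the call was lost (edgeR adjusted p = 0.0817).

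The remaining 3 genes gave no call. Cd44 (ENSMUSG00000005087, chromosome 2, 102811141 to 102901665, minus strand) had 135, 139 and 127 CPM in the DOT1L knockout, against 75.0, 101 and 123 CPM in NT. Every DOT1L library lay above every NT library, as for 19.6% of tested genes, and the log2 fold change was 0.42 with a 95% interval of -0.09 to 0.93 (edgeR adjusted p = 0.254). Cd47 (ENSMUSG00000055447, chromosome 16, 49800533 to 49915010, plus strand) had 479, 452 and 604 CPM in the DOT1L knockout, against 418, 418 and 787 CPM in NT. The groups overlapped, and the interval of the log2 difference ran from -0.60 to 0.44 (edgeR adjusted p = 0.872). Cd9 (ENSMUSG00000030342, chromosome 6, 125460266 to 125494791, minus strand) had 13.4, 16.0 and 22.6 CPM in the DOT1L knockout, against 10.3, 15.01 and 10.9 CPM in NT. It rested on 36 to 127 counts per DOT1L library and 25 to 48 per NT library, and the log2 interval ran from -0.07 to 1.14 (edgeR adjusted p = 0.215).

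Markers of other cell types moved with these falls. The summed level of 10 neutrophil markers was 91750 to 105664 CPM in DOT1L libraries and 322 to 412 CPM in NT libraries, and all 10 markers rose. The monocyte and macrophage list summed to 2307 to 3488 CPM in the DOT1L knockout, against 251 to 369 CPM in NT, but its genes were split, with 3 higher and 2 lower of 6 tested. Lyz2, which encodes lysozyme, carried the sum, with a mean of 2887 CPM in the DOT1L knockout and 58.9 CPM in NT, while the macrophage receptor gene Adgre1 averaged 39.1 CPM in the DOT1L knockout and 219 CPM in NT. C1qa and C1qb were at 0 in both groups. Other lists went either way. The myeloid list summed to 9516 to 10400 CPM in the DOT1L knockout, against 7885 to 8275 CPM in NT, with 5 higher and 1 lower of 8 tested. B cell markers, nearly all Ighm, summed to 145 to 182 CPM, against 69.2 to 132 CPM in NT, with no call. Stromal and epithelial markers summed to 14.6 to 20.3 CPM, against 0 to 1.25 CPM in NT, and the 1 gene tested was higher. The lists that follow summed lower, as the 4 called members did. Mast cell and basophil markers summed to 32.8 to 47.2 CPM in the DOT1L knockout, against 119 to 152 CPM in NT, with 3 of 4 tested lower and Prss34 and Fcer1a at 0 in both groups. The dendritic list summed to 26.9 to 62.1 CPM in the DOT1L knockout, against 170 to 215 CPM in NT, nearly all of it Tcf4, the 1 gene tested, and Pecam1 averaged 177 CPM in the DOT1L knockout and 393 CPM in NT, and both were lower. Of 3 erythroid and megakaryocytic markers tested 2 were higher and 1 lower, and the list summed to 22.04 to 27.3 CPM in the DOT1L knockout, against 73.8 to 100.1 CPM in NT. In bulk RNA, fewer cells that carry a transcript and less transcript per cell cannot be told apart, and the part of these markers in the falls was not tested.

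**Figure D2:**
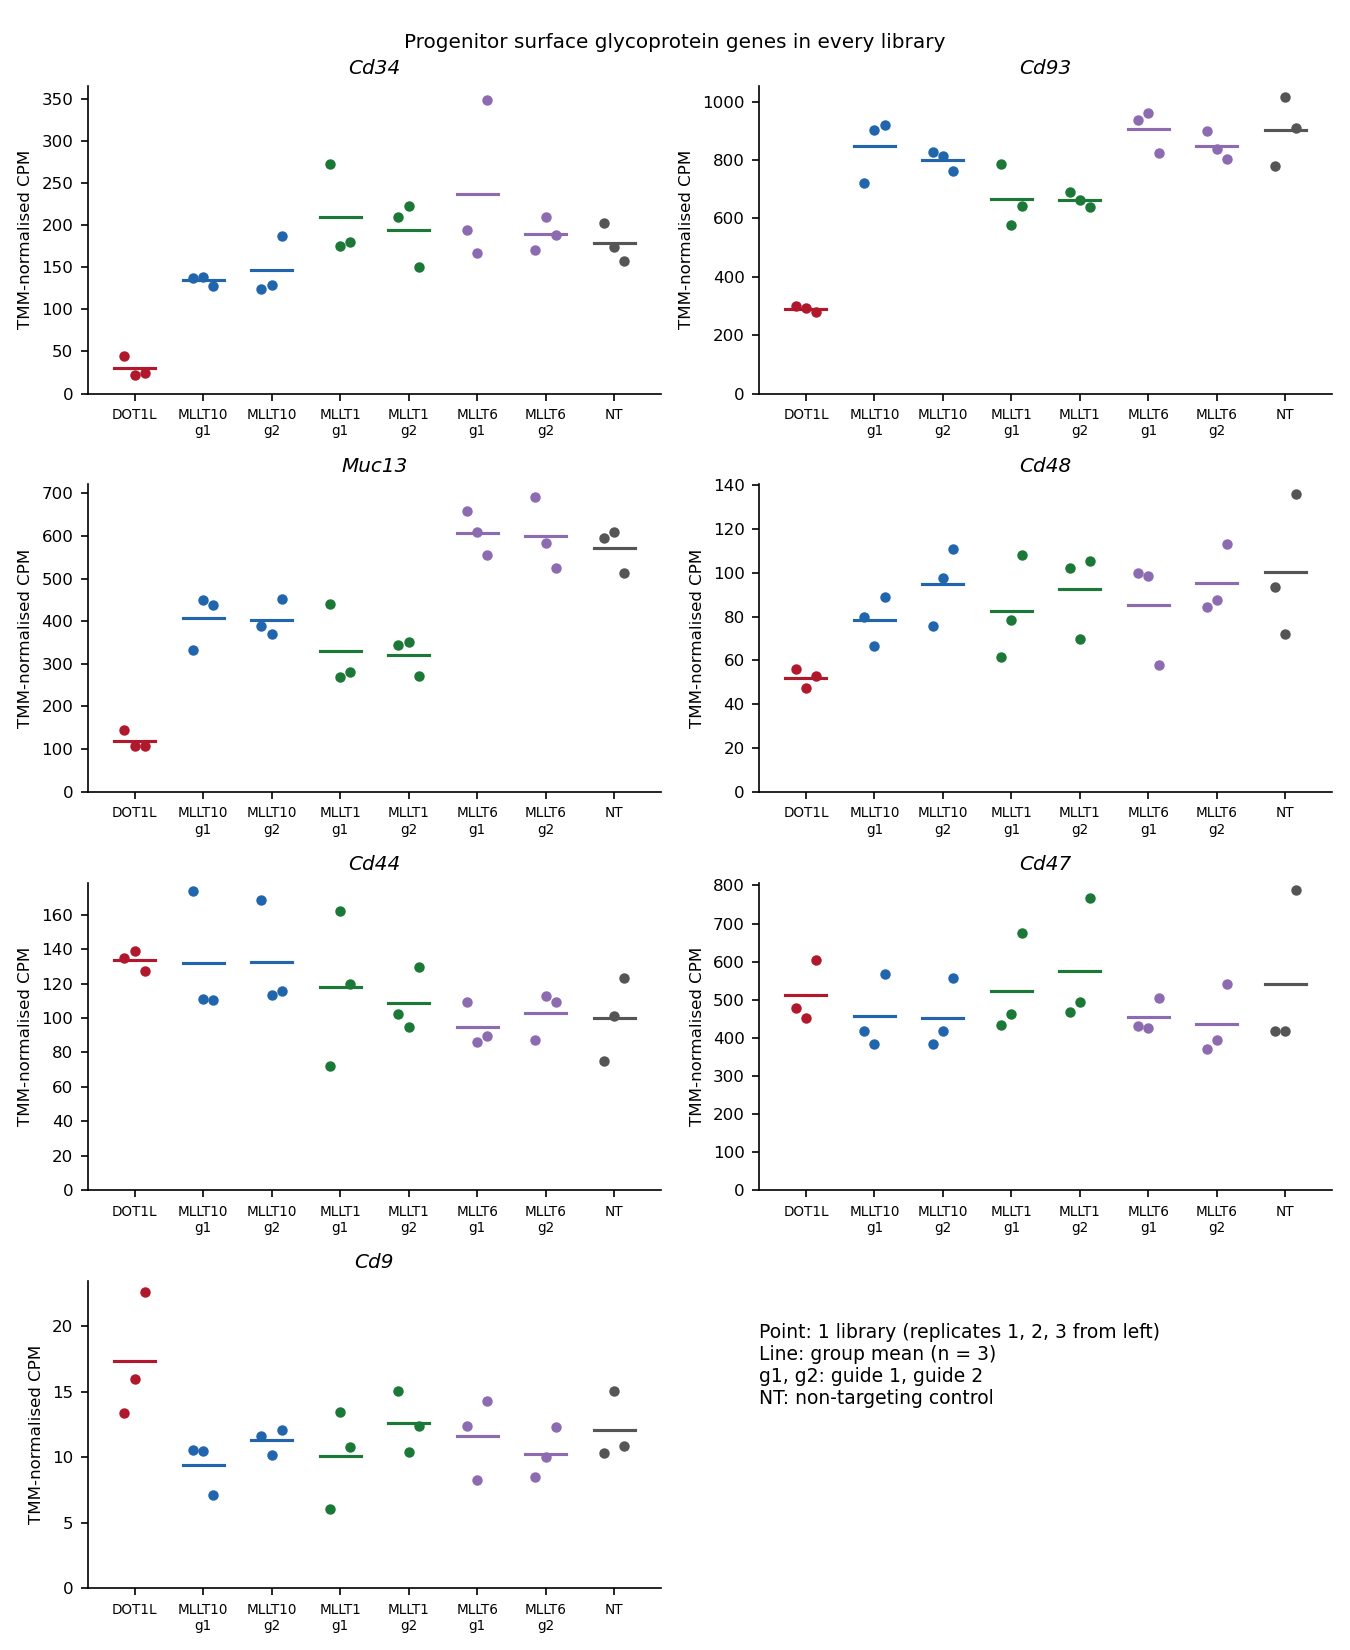
CPM after TMM scaling of each of the 7 genes in all 24 libraries, by group from the DOT1L knockout on the left to NT on the right; points are libraries, lines group means (n = 3). The DOT1L libraries form the lowest group for Cd34, Cd93, Muc13 and Cd48, with Cd34 at 22.4 to 44.2 CPM.

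The libraries labelled as MLLT1 knockout had less Muc13. Guide 1 libraries held 439, 269.7 and 281 CPM and guide 2 libraries 343, 351 and 271 CPM, against 594, 609 and 514 CPM in NT. All 6 MLLT1 libraries lay below NT, as for 4.3% of tested genes, with guide 1 replicate 1 the nearest. It fell by 0.81 ± 0.15 on the log2 scale over both guides (edgeR adjusted p = 0.00417), and it stayed called without any 1 of the 24 libraries (highest adjusted p = 0.0411). By guide, the fall was 0.80 for guide 1 (edgeR adjusted p = 0.0326) and 0.83 for guide 2 (edgeR adjusted p = 0.0236), beside 1.25% and 1.22% of all genes called. Either guide's call was lost when that guide and NT were fitted alone (edgeR adjusted p = 0.306 and 0.0833) and on leaving out 4 of the 24 libraries. For guide 1 these were NT replicates 2 and 3 and its own replicates 2 and 3, with adjusted p-values of up to 0.214. For guide 2 they were NT replicate 2 and each of its own libraries, up to 0.133.

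Cd93 was also called in the MLLT1 knockout, less firmly. Its level was 785, 576 and 643 CPM with guide 1 and 692, 662 and 641 CPM with guide 2, against 780.3, 1017 and 911 CPM in NT. The groups overlapped through MLLT1 guide 1 replicate 1 and NT replicate 1. Its log2 fold change of -0.44 ± 0.12 passed (edgeR adjusted p = 0.0431). The call was lost on leaving out any of 18 of the 24 libraries (adjusted p from 0.0501 to 0.319 in these 18 fits). It was also lost with every counted gene kept (0.171), or when the compared groups were fitted by themselves (0.198). Together this made 2 of 7 genes lower, beside 2.58% of all tested genes called and 1.61% called lower.

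Other members gave no call in the MLLT1 libraries. Cd34 stood at 272, 175 and 180.2 CPM with guide 1 and 209, 223 and 149.7 CPM with guide 2, against 158 to 203 CPM in NT, with a log2 interval of -0.29 to 0.64. Cd48 had an interval of -0.65 to 0.24, Cd44 of -0.26 to 0.63, Cd47 of -0.42 to 0.47 and Cd9 of -0.63 to 0.44. In the same libraries the neutrophil markers summed to 1838 to 2358 CPM, against 322 to 412 CPM in NT. Of these 7 of 10 rose, beside 2.58% of all genes called. Markers called lower were 2 of 8 myeloid, 2 of 6 monocyte and macrophage and 1 of 3 erythroid and megakaryocytic genes tested. The part of all these markers in the Muc13 and Cd93 values was not tested.

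In the MLLT10 knockout none of the 7 genes was called, beside 0.473% of all tested genes (50 genes, and 79 with the replicate number as a block, where also no member was called). Muc13 came nearest. Guide 1 libraries held 333, 450.2 and 438 CPM and guide 2 libraries 389, 369 and 452 CPM, against 594, 609 and 514 CPM in NT. All 6 MLLT10 libraries lay below NT, as 2.93% of tested genes did, and the log2 fold change was -0.50 ± 0.16 (unadjusted p = 0.00400 and adjusted p = 0.220 by edgeR). DESeq2 called no member either. In the same libraries the neutrophil markers summed to 776 to 1112 CPM, against 322 to 412 CPM in NT, and 4 of 10 rose. In other lists 1 of 8 myeloid markers tested rose. There 1 of 6 monocyte and macrophage and 1 of 4 mast cell and basophil markers tested fell. The part of all these markers in the Muc13 values was not tested. For Cd34, guide 1 gave 137, 138 and 127 CPM and guide 2 gave 124, 129 and 187 CPM, against 203, 174 and 158 CPM in NT. Guide 2 replicate 3 alone reached the NT range, and the log2 interval ran from -0.81 to 0.11 (edgeR adjusted p = 0.655). The intervals of the others were -0.37 to 0.11 for Cd93, -0.67 to 0.22 for Cd48, -0.04 to 0.85 for Cd44, -0.70 to 0.19 for Cd47 and -0.76 to 0.30 for Cd9.

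In the MLLT6 knockout no member was called, and neither was any of the 10578 genes (0%). By edgeR 727 genes, none of them a member, had an unadjusted p under 0.05, and DESeq2 called no member. Muc13 values were 657, 609 and 555 CPM for guide 1, and 692, 583 and 524 CPM for guide 2, against 594, 609 and 514 CPM in NT, with a log2 interval of -0.25 to 0.41. The same held for Cd93, at 804 to 960.2 CPM in MLLT6 libraries and 780.3 to 1017 CPM in NT, with an interval of -0.29 to 0.20. Cd34 spread most widely, at 194, 166 and 349 CPM with guide 1 and 171, 209 and 188 CPM with guide 2. Its log2 fold change was 0.25 over all libraries and 0.05 without guide 1 replicate 3, a library that stood apart.

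No member was called between the guides of a gene, and neither was any other gene (0% for MLLT10, MLLT1 and MLLT6). At an unadjusted p under 0.05 edgeR gave 182, 222 and 983 genes in these comparisons of guide 2 with guide 1, and no member. Muc13 differed between the guides by -0.01, -0.04 and -0.02 on the log2 scale for MLLT10, MLLT1 and MLLT6, with intervals of -0.39 to 0.36, -0.41 to 0.34 and -0.40 to 0.36. Cd93 had narrower intervals, as -0.38 to 0.18 in MLLT6. The remaining members had wider intervals, as -0.86 to 0.21 for Cd34 in MLLT6 and -0.32 to 0.87 for Cd9 in MLLT1.

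**Figure D3:**
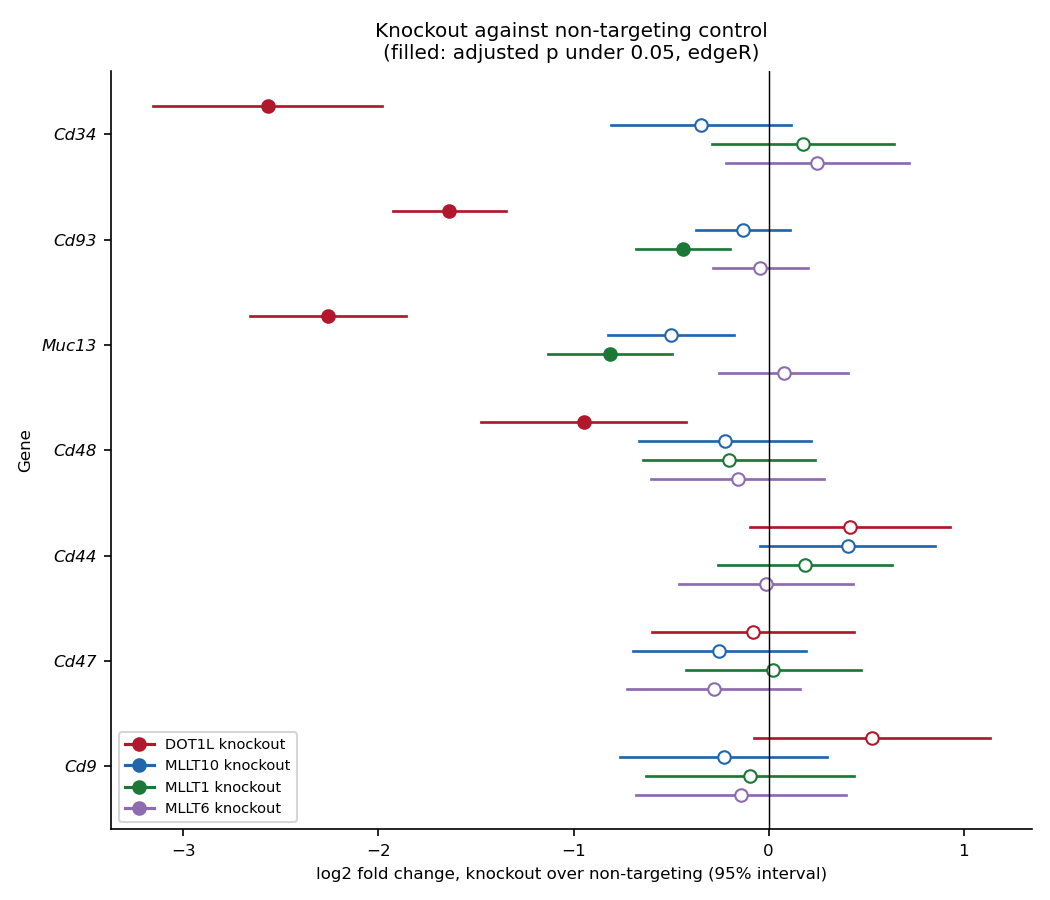
Fitted log2 fold change of each gene in the 4 knockouts over NT, with 95% intervals; filled points passed an adjusted p of 0.05 in edgeR's test. Filled points are Cd34, Cd93, Muc13 and Cd48 in the DOT1L knockout, and Cd93 and Muc13 in the MLLT1 knockout. All 4 comparisons share the 3 NT libraries.

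Differences between knockouts were tested directly. Against the DOT1L knockout, Cd34 was higher by 2.22 on the log2 scale in the MLLT10 knockout, 2.74 in the MLLT1 knockout and 2.82 in the MLLT6 knockout (edgeR adjusted p = 6.55e-07, 4.23e-08 and 1.82e-08). Cd93 was higher by 1.504, 1.20 and 1.59 (edgeR adjusted p = 4.35e-09, 1.41e-07 and 1.24e-09), and Muc13 by 1.76, 1.45 and 2.34 (edgeR adjusted p = 5.10e-08, 8.44e-07 and 6.04e-10), in the same order of knockouts. For Cd48 the differences were 0.72, 0.74 and 0.79 (edgeR adjusted p = 0.0210, 0.0197 and 0.00999). All 3 Cd48 calls were lost without DOT1L replicate 2 (up to 0.0979), and without DOT1L replicate 3 the MLLT10 and MLLT1 calls were (0.0710 and 0.0712). So 4 of 7 genes were higher in each, beside 10.9%, 8.49% and 14% of all genes called higher. These 3 comparisons share the DOT1L libraries.

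Cd9, the least abundant member in NT, ran the other way. It stood at 7.13 to 12.1 CPM in MLLT10 libraries, 6.05 to 15.05 in MLLT1 libraries and 8.27 to 14.3 in MLLT6 libraries, against 13.4, 16.0 and 22.6 CPM in the DOT1L knockout. The log2 differences were -0.76, -0.63 and -0.67 (edgeR adjusted p = 0.0237, 0.0757 and 0.0417), so the MLLT10 and MLLT6 calls passed, beside 12.6% and 15.3% of all genes called lower. Both were lost without DOT1L replicate 3 (edgeR adjusted p = 0.262 and 0.334), the library with 22.6 CPM, and with no filter on low counts (0.0557 and 0.0961). In all, leaving out any of 3 libraries ended the MLLT10 call and any of 9 the MLLT6 call, of 24.

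Muc13 also differed among MLLT10, MLLT1 and MLLT6. In the MLLT1 libraries it was at 269.7 to 439 CPM, against 524 to 692 CPM in the MLLT6 libraries. The log2 difference was -0.89 ± 0.13 (edgeR adjusted p = 0.000144), with 2 of 7 members lower beside 2.68% of all genes. The other was Cd93, with a log2 difference of -0.40 ± 0.10 (edgeR adjusted p = 0.0180), a call lost without MLLT1 guide 1 replicate 2 or 3 or guide 2 replicate 3 (up to 0.0658), with no filter on low counts (0.0656) or with those groups fitted by themselves (0.0638). Muc13 in MLLT10 libraries, at 333 to 452 CPM, was also lower than in the MLLT6 libraries. The log2 difference was -0.58 ± 0.13 (edgeR adjusted p = 0.0331, 0.35% of all genes called lower). This call was lost on leaving out any of 8 of the 24 libraries, each an MLLT10 or MLLT6 library (up to 0.105). Between MLLT10 and MLLT1 no member was called, beside 2.68% of all genes. Muc13 differed by 0.31 there, with an interval of 0.05 to 0.58 (edgeR adjusted p = 0.259), and without MLLT1 guide 1 replicate 1 by 0.45 (0.0419). Cd93 differed by 0.31 (edgeR adjusted p = 0.1), and passed without MLLT1 guide 1 replicate 1 (0.0343), without MLLT10 guide 1 replicate 1 (0.0452) or with the DESeq2 test (0.0391). Cd34 in the MLLT10 libraries differed by -0.52 from MLLT1 and by -0.60 from MLLT6 (edgeR adjusted p = 0.156 and 0.172), and both passed with no filter on low counts (0.0130 and 0.00337).

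For each gene the knockouts can be ordered by mean CPM. Muc13 ran from 119.5 ± 21.04 in the DOT1L knockout (n = 3) through 326 ± 66.2 in MLLT1, 405 ± 49.0 in MLLT10 and 603 ± 62.8 in MLLT6 (n = 6 each), against 572 ± 51.2 in NT (SD, n = 3). The spreads of MLLT1 and MLLT10 overlapped, as did those of MLLT6 and NT. For Cd93 the knockouts came in the same order, with 290.6 ± 11.3 CPM in DOT1L, 667 ± 69.3 in MLLT1, 824 ± 77.0 in MLLT10 and 877 ± 64.5 in MLLT6, against 903 ± 118 CPM in NT. There the SD ranges of MLLT10, MLLT6 and NT overlapped with their neighbours and that of MLLT1 did not. Single MLLT1 libraries still overlapped those of MLLT10 and of NT. For Cd34 it differed, with 30.3 ± 12.1 CPM in the DOT1L knockout, 140.5 ± 23.5 in MLLT10, 202 ± 43.2 in MLLT1 and 213 ± 68.4 in MLLT6, against 178 ± 22.8 CPM in NT. In the Cd34 order the SD ranges of MLLT10 and NT overlapped at their ends only, as those of NT, MLLT1 and MLLT6 did more widely, and the DOT1L knockout stood apart from all.

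Cd48, Cd44 and Cd9 varied widely among the libraries of a group. Values of Cd48 were 79.7, 66.5 and 89.1 CPM for MLLT10 guide 1, 75.6, 97.8 and 111 with MLLT10 guide 2, 61.5, 78.4 and 108 with MLLT1 guide 1, 102, 70.0 and 105 with MLLT1 guide 2, 100.0, 98.4 and 57.8 with MLLT6 guide 1, and 84.6, 87.7 and 113 with MLLT6 guide 2. All 18 of these values lay above the 3 DOT1L values, and the share of all tested genes placed so was not counted. Cd44 reached its highest values in replicate 1 of both MLLT10 guides, at 174 and 168 CPM, while replicates 2 and 3 of those guides lay at 110.5 to 116 CPM. Its values were 72.0, 162 and 119.8 CPM with MLLT1 guide 1, 102, 94.5 and 129.6 with MLLT1 guide 2, 109.5, 85.8 and 89.6 with MLLT6 guide 1, and 87.2, 113 and 109 with MLLT6 guide 2. The lowest Cd44 value, the lowest Cd9 value (6.05 CPM) and the highest Cd34 value of the MLLT1 libraries were all those of MLLT1 guide 1 replicate 1, which stood apart.

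Cd47 varied with the replicate number, which was noticed after the values were seen, and it was called in no knockout against NT. Replicate 3 was the highest Cd47 library in 8 of 8 groups. Replicate 3 held 567.7 CPM with MLLT10 guide 1, 557 with MLLT10 guide 2, 674 with MLLT1 guide 1, 767 with MLLT1 guide 2, 506 with MLLT6 guide 1 and 540.5 with MLLT6 guide 2. Replicates 1 and 2 of the same groups held 370.1 to 495 CPM. With group as a term, replicate 3 was higher than replicates 1 and 2 by 0.54 ± 0.07 on the log2 scale (edgeR adjusted p = 0.000254, 1.24% of all genes called). This contrast was chosen from the same Cd47 values, so its p-value cannot serve as a test of the pattern. Cd48 was highest in replicate 3 in 6 of 8 groups, by 0.26 ± 0.12 (edgeR adjusted p = 0.271). The labels do not say what a replicate number marks. Because NT replicate 3 stood at 787 CPM, the Cd47 log2 fold change in the DOT1L knockout was -0.08 with it and 0.29 without it, and neither was called.

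**Figure D4:**
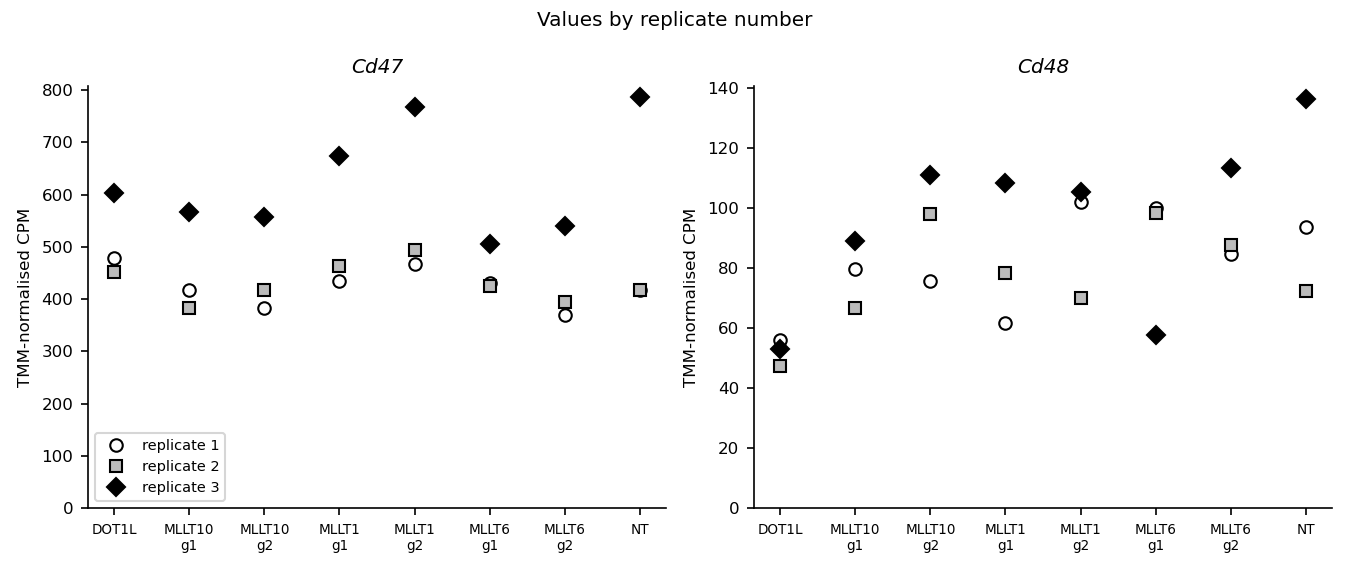
CPM after TMM scaling of Cd47 (left) and Cd48 (right) in every library, by group with NT last; circles are replicate 1, squares replicate 2 and diamonds replicate 3. The Cd47 diamond is the highest point of all 8 groups, at 506 to 787 CPM, and the Cd48 diamond is the highest in 6.

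The profiles of the members over the 24 libraries fell into different patterns. As a description, Pearson correlations of log2 CPM were 0.951 for Cd93 with Muc13, 0.841 for Cd34 with Muc13 and 0.834 for Cd34 with Cd93. All 3 values share the low DOT1L libraries. After subtraction of group means, Cd93 and Muc13 correlated at 0.670, Cd34 and Muc13 at 0.501 and Cd34 and Cd93 at -0.04, while Cd48 and Cd47 were at 0.636 and Muc13 and Cd44 at -0.71. Libraries share depth and preparation in these values, and no test was made.

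Among the 8581 genes that averaged 5 CPM or more, those most like Cd34 included Frzb and Hoxa11 (0.965 and 0.954 over 24 libraries, and 0.708 and 0.619 over the 21 without the DOT1L knockout). Most like Muc13 were Col6a3, Cd93 and Ctla2a (0.961, 0.951 and 0.950, and 0.886, 0.838 and 0.913 without DOT1L). For Cd93 they were Armcx4, Cdkn2c and Galnt6 (0.957, 0.956 and 0.953, and 0.840, 0.695 and 0.706). Cd48 was nearest to Lman1, Fut8 and Pi4k2b (0.849, 0.841 and 0.836), Cd44 to Atxn7l3b, Rb1 and Inafm2 (0.874, 0.825 and 0.822), and Cd47 to Thoc7, Abracl and Arl14ep (0.851, 0.850 and 0.837). Cd9 had the weakest likeness, to Zfand3, Scyl2 and Rab32 (0.737, 0.708 and 0.704). Without DOT1L these values were lower for Cd48 (0.718, 0.710 and 0.704) and Cd9 (0.606, 0.615 and 0.494). They changed little for Cd44 (0.866, 0.828 and 0.830) and Cd47 (0.856, 0.847 and 0.851).

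The known ligands, receptors and other partners of the 7 proteins were examined from a list of 25 genes, of which 16 were tested. This list and those below were also drawn up with earlier results known, so their shares called are descriptive only. In the DOT1L knockout 5 rose and 4 fell, or 56.2% called, beside 21.8% of all genes. Sirpa, the receptor of CD47 on phagocytes, averaged 142 ± 10.4 CPM in the DOT1L knockout and 62.0 ± 5.51 CPM in NT (SD, n = 3 each), and rose by 1.19 ± 0.19 on the log2 scale (edgeR adjusted p = 4.62e-05). Cd244a, the receptor of CD48, averaged 3.87 ± 1.81 CPM in the DOT1L knockout and 12.3 ± 2.04 CPM in NT, and fell by 1.62 ± 0.35 (edgeR adjusted p = 0.00135). So Cd48 and its receptor were both lower, and Sirpa was higher where Cd47 gave no call.

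Mmp9, a secreted gelatinase known to dock on CD44, averaged 350.2 ± 26.1 CPM in the DOT1L knockout and 5.599 ± 2.44 CPM in NT, and rose by 6.00 ± 0.48 (edgeR adjusted p = 2.35e-09). Mmp9 is also a product of neutrophil granules, whose markers rose in the same libraries. Named after their values were seen, Spp1, which encodes the CD44 ligand osteopontin, rose by 1.89 ± 0.41 (edgeR adjusted p = 0.00156) and Thbs1, which encodes the CD47 ligand thrombospondin 1, rose by 1.43 ± 0.37 (edgeR adjusted p = 0.00619). Igsf8, a partner of CD9, fell by 0.79 ± 0.21 (edgeR adjusted p = 0.00817), a call lost without NT replicate 3 (0.0580). Hmmr, a second hyaluronan receptor, and Gipc1, which binds the tail of CD93, gave log2 fold changes of 0.02 each (edgeR adjusted p = 0.976 and 0.978). Ptgfrn had 0 counts in all libraries. In the MLLT10, MLLT1 and MLLT6 knockouts Sirpa, Cd244a, Igsf8, Hmmr and Gipc1 gave no call.

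Of 43 family relatives (sialomucins, lectin-like receptors, SLAM genes, mucins, hyaluronan receptors and tetraspanins) 20 were tested, and 3 rose and 5 fell in the DOT1L knockout, or 40% called, beside 21.8% of all genes. Cd84, a SLAM family receptor, fell by 0.90 ± 0.15 (edgeR adjusted p = 0.000119) and Tspan3, a tetraspanin, by 1.05 ± 0.18 (edgeR adjusted p = 0.000162). Spn, which encodes the leukocyte sialomucin CD43, rose by 1.00 ± 0.21 (edgeR adjusted p = 0.00100). Tspan5, another tetraspanin, rose by 0.75 ± 0.22 (edgeR adjusted p = 0.0170), a call lost without NT replicate 2 or DOT1L replicate 1 or 2 (up to 0.0863).

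Of 19 other surface genes used to sort progenitors 10 were tested, and 3 rose and 4 fell in the DOT1L knockout, or 70% called, beside the same 21.8%. Adgrg1, an adhesion receptor of stem cells, averaged 22.9 ± 7.41 CPM in the DOT1L knockout and 119.5 ± 6.27 CPM in NT, and fell by 2.38 ± 0.24 (edgeR adjusted p = 7.55e-08). Flt3, the receptor of FLT3 ligand, fell by 3.16 ± 0.36 (edgeR adjusted p = 4.80e-07). Prom1, which encodes CD133, and Cd24a rose by 3.70 ± 0.34 and 1.40 ± 0.15 (edgeR adjusted p = 2.15e-08 and 2.03e-07). Over all 87 related genes 46 were tested, and 11 rose and 13 fell, or 52.2% called beside 21.8% of all genes. Of the 24 calls, 16 were kept without any 1 library and 8 were lost without at least 1. Their median log2 fold change, over the 46, was 0.01, and 0.01 over all tested genes.

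In the MLLT1 knockout 3 of the 46 rose and 3 fell (13.0%, beside 2.58% of all genes). Thy1, a surface protein of stem cells and T cells, averaged 51.2 ± 13.9 CPM in MLLT1 libraries (n = 6) and 153 ± 65.0 CPM in NT (SD, n = 3), and fell by 1.57 ± 0.24 (edgeR adjusted p = 0.000515). Flt3 fell by 1.46 ± 0.27 (edgeR adjusted p = 0.00269), a call lost without NT replicate 3 (0.0548). Cd33, a sialic acid-binding receptor of myeloid cells, rose by 0.78 ± 0.16 (edgeR adjusted p = 0.00710), lost without NT replicate 2 (0.0578) or 3 (0.0522). The other calls were Prom1 at 1.46 ± 0.30 (edgeR adjusted p = 0.00869), Tspan2 at -0.79 ± 0.18 (0.0186) and Mmp9 at 1.65 ± 0.44 (0.0470). Prom1 and Tspan2 were lost without NT replicate 2 (0.124 and 0.105) or 3 (0.107 and 0.215), and Mmp9 without any of 17 of the 24 libraries (up to 0.338). With MLLT1 and NT fitted by themselves, Prom1, Tspan2 and Mmp9 were not called (0.0998, 0.132 and 0.0853). In the MLLT10 knockout Prom1 alone was called, at 1.70 ± 0.30 (edgeR adjusted p = 0.00687), and it was lost without NT replicate 2 or 3 (up to 0.125). In the MLLT6 knockout none of the 46 was called.

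**Figure D5:**
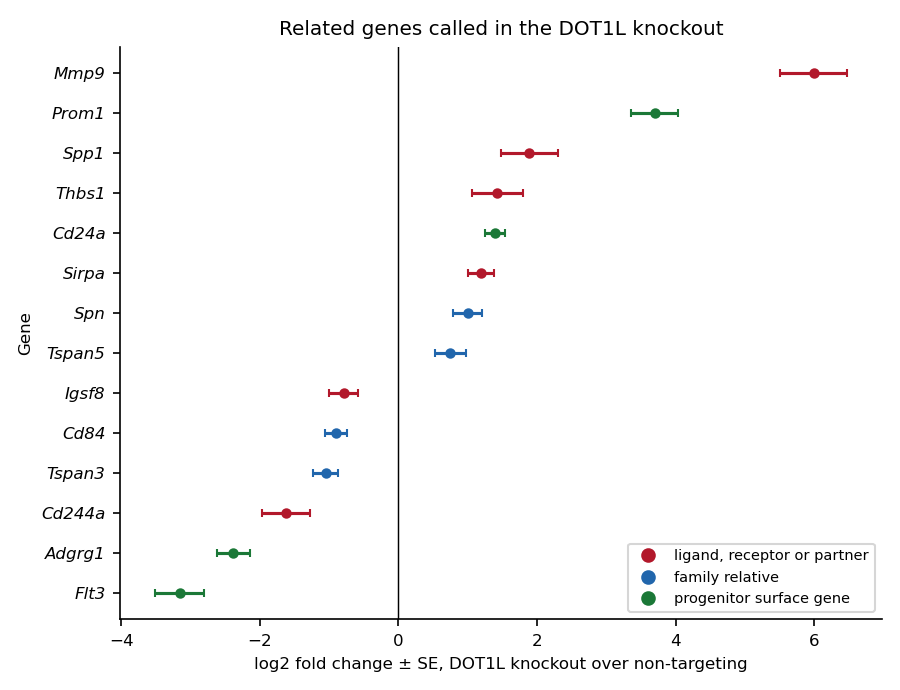
Fitted log2 fold change with SE of the related genes described in the text that passed an adjusted p of 0.05 in the DOT1L knockout against NT, by list. Mmp9 at 6.00 and Prom1 at 3.70 lie farthest right, and Flt3 at -3.16 and Adgrg1 at -2.38 farthest left.

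Gene models overlap some members, and the sources used here give no strand setting for the counting. The antisense gene Gm16897 overlaps Cd34 and had 53 counts in all libraries, against 16896 for Cd34. Gm15657, antisense to Muc13, had 24 counts, and Gm37010, on the strand of Cd48, had 440 counts, against 8352 for Cd48. How reads were counted where the genes of a pair overlap is therefore not known.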

How the data were processed

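The deposited table holds the authors' raw read counts, with a column for each of the 24 libraries. Per the submitters' processing notes, the build was mm10 and the tools bcl2fastq, HISAT2, HTSeq and DESeq2. Sources used here give neither their versions nor the annotation counted. Symbols came from GENCODE M21, which named 42548 of 43629 identifiers.

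The deposited counts were tested with edgeR 4.0.16 in R 4.3.3 (TMM, edgeR's filter on low counts, 1 quasi-likelihood fit of 8 groups, Benjamini-Hochberg over 10578 genes). Guides of a gene entered as the mean of both. There were 19 comparisons. SE was worked back from the F statistic and is approximate. The fit was tested on simulated data. Replicates of a group differed by more than sampling noise (chi-square per gene of 4.77 to 34.3 over genes with at least 20 counts), so all were kept. Levels per length used exon-union lengths. Figures were made with Python 3.11.15 and matplotlib 3.10.9.

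Alternatives were no filter, DESeq2 1.42.0 size factors and test, a replicate block, the compared groups alone, leaving out each library and leaving out both that stood apart. Replicate numbers were checked by correlating deviations from group means: all 3 numbers exceeded 0.1 in 11 of 28 pairs of groups, 4 of them with NT, including both MLLT10 guides. The pairing comes from the data, since the labels do not state it.

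The members, related lists and rules were chosen with earlier results of these data known. Named genes were the members, up to 4 called genes with the smallest adjusted p per related list and knockout, 7 direct partners, and the 3 genes most like each member. Some genes that these rules or the marker lists name are not reported here.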

Additional observations from a re-analysis of the deposited data

Results flagged for a closer look

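Within the 6 libraries of a knockout with both guides, 2 of 21 sets of member values held a library far from the others by Dixon's criterion for 6 samples (gap over range above 0.625), which chance alone gives in about 1 of 20 sets. Cd34 in the MLLT10 knockout was 187 CPM in guide 2 replicate 3, and the next library was at 138 CPM. That gap was 0.775 of the range. Cd34 in the MLLT6 knockout was 349 CPM in guide 1 replicate 3, and the next was at 209 CPM, a gap of 0.766 of the range. The MLLT6 library is among the pair that stood apart over all genes, and the MLLT10 library is not.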

How the results depend on the processing

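Across all alternatives, the 6 member fold changes called against NT kept their direction. Of those not called, Cd47 changed sign in all 4 knockouts on leaving out 1 library (in the DOT1L knockout -0.08, and 0.29 without NT replicate 3), as did Cd48 in MLLT10, MLLT1 and MLLT6, Cd9 in MLLT1 and MLLT6, and Cd93 and Cd44 in MLLT6. Cd34, Cd93 and Muc13 in the DOT1L knockout and Muc13 in the MLLT1 knockout were called under every alternative run. Leaving out a library in turn gave 3 to 4 members called for DOT1L, 1 to 2 for MLLT1 and 0 for MLLT10 and MLLT6. Related genes then ranged from 19 to 26 for DOT1L, 0 to 1 for MLLT10 and 1 to 6 for MLLT1, and all genes from 1750 to 2461, 15 to 61 and 74 to 432, with 0 for MLLT6. With no filter on low counts, MLLT10 had 3 related genes and 192 genes called, MLLT1 had 1 member and 463 genes, and MLLT6 had 80 genes. With the compared groups fitted by themselves, MLLT10 had 0 related genes and 28 genes, and MLLT1 had 1 member, 3 related genes and 97 genes. The DESeq2 test gave 105 genes for MLLT10, and leaving out both libraries that stood apart gave 79. With the replicate number as a block, 79 genes were called for MLLT10 and 457 for MLLT1, against 50 and 273 without it, and no member call against NT changed. The pairing is a hint from the data for DOT1L, MLLT1 and MLLT6, whose libraries did not all correlate above 0.1 with the same number of NT. DESeq2 size factors changed no count by more than 1.5 times. The cause of these differences was not tested. Depth limits Cd9 most, at 18 to 127 counts per library.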
